A study of Mus musculus with 8 samples.

Results

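The genes of the cytosolic ribosomal proteins, the protein components of the 80S ribosome, were followed across 8 Affymetrix mouse arrays of NS5 cells. A gene was a member when a probe set of the array named it alone and its symbol had the form of a ribosomal protein of the large subunit (Rpl), of the small subunit (Rps), of the stalk (Rplp) or Rpsa. This gave 42 genes of 18193 in all, 22 of the large and 20 of the small subunit, spread over 15 chromosomes. Each gene was read from its probe set with the highest mean log2 signal. A further 27 such symbols occurred only on probe sets that list several genes, and they are not members.

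NS5 cells are a mouse line that the labels give as neural stem cells of embryonic brain, E11.5. They were plated for 24 h on poly-ornithine and laminin with FGF2 and EGF and kept for 4 h without growth factors. One of 4 treatments followed for 48 h, with 2 arrays each: Ethanol and FGF2, Ethanol and TGF-beta1, FGF2, and TGF-beta1. Ethanol was at 400 mg/dl and each growth factor at 10 ng/ul as stated, a unit that the arrays cannot check, and the labels state EGF only for the plating step. FGF2 is a mitogen of neural stem cells and TGF-beta1 a cytokine acting through Smad transcription factors. All cells are of 1 line, and whether the 2 replicates came from separate cultures is not stated, so p-values measure only the spread between these samples.

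A ribosome is built from ribosomal RNA and 1 copy of nearly every ribosomal protein, so cells make these proteins in matched amounts, and their messenger RNAs are among the most abundant of a dividing cell. Many of these messengers begin with a cytosine followed by a run of pyrimidines, the 5′ terminal oligopyrimidine tract, through which mTOR signalling sets how much of them is translated rather than how much messenger there is. Neural stem cells depend on ribosome production for growth and division.

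The array measures messenger level alone, as a MAS5 signal, a linear brightness scaled by the authors so that the 2% trimmed mean was 500 on each array. A signal therefore gives a level relative to the rest of its array, and in such bulk samples fewer cells of a type and less RNA per cell cannot be told apart. The median signal over all probe sets was 83.3 and 65.0 on the Ethanol and FGF2 arrays, 70.8 and 78.0 on the Ethanol and TGF-beta1 arrays, 50.7 and 86.5 on the FGF2 arrays, and 50.6 and 80.7 on the TGF-beta1 arrays. All 7 neural stem cell markers tested were above the signal filter, with Sox2 between 6018 and 12161, and the 3 oligodendrocyte and 4 endothelial markers stayed under it, as did 4 of 5 microglia markers. Neuron and mesenchymal markers were not level between arrays with and without ethanol. Of 6 neuron markers 4 were tested and all 4 lay above 0 in the ethanol average (median log2 fold change 1.58). Celf4 passed by limma (2.76 ± 0.44, adjusted p = 0.0130), and Dcx and Celf4 passed within TGF-beta1. As deposited, these and all other calls for ethanol ended without the doubted arrays described next, which left 1 array in each ethanol group. The summed neuron marker signal was 9195 to 14371 with ethanol, against 5470 to 11493 without. Of 5 mesenchymal markers 4 were tested, with a median of 0.94 and 0 called by limma, and a summed signal of 1072 to 2027 with ethanol, against 696 to 1381 without. Of 4 astrocyte markers, all tested, 2 lay above and 2 below 0 in the ethanol average (median 0.22), with 0 called by limma. Among them Gfap ran between 668 and 8284 with ethanol, against 61.9 and 2461 without. The part of these cell types in the results below was not tested. On 2 arrays the growth factor label was in doubt. The signal of Fn1, fibronectin, was 6828 and 116 on the Ethanol and FGF2 arrays (replicates 1 and 2) and 124 and 8226 on the Ethanol and TGF-beta1 arrays, against 120 and 139 on the FGF2 arrays and 3015 and 4109 on the TGF-beta1 arrays. The arrays labelled replicate 1 of both ethanol groups thus stood with the other growth factor. They were kept in the groups of their labels, and values without these 2 doubted arrays are given beside the results.

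Promoter sequences were looked up for the start of each member's transcript, since the pyrimidine tract is the feature the family is known for. RefSeq (GRCm38.p6) held a start for 37 of the 42 members, with 43 promoters. A cytosine and at least 4 further pyrimidines (C or T) stood exactly at the annotated start in 8 of these 43 promoters (18.6%), against 823 of 32851 promoters of all genes (2.51%). Windows of 50 bases from 4 members show it, each with 30 bases before the start and 20 from it on, the tract in capitals. They belong to Rpl35, the member with the longest tract, to Rps18, to Rps6, the ribosomal protein phosphorylated by the S6 kinases below mTOR, and to Rplp2, a stalk protein. Their positions are chr2:39005112-39005161, minus strand, for Rpl35, chr17:33955646-33955695, minus strand, for Rps18, chr4:86857348-86857397, minus strand, for Rps6, and chr7:141447621-141447670, plus strand, for Rplp2.
Rpl35: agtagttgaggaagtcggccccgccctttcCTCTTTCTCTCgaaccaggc
Rps18: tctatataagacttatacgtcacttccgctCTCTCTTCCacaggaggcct
Rps6: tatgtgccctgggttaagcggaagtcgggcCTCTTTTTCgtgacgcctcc
Rplp2: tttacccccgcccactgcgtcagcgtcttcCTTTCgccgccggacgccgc
The letters CCGGAAG, searched on both strands of each promoter sequence (250 bases before the start to 50 after it), were found in 18 of 43 member promoters (41.9%) and in 8.86% of all promoters. TATAAA on the strand of the gene within the 50 bases before the start was found in 0 of 43, against 2.63% of all promoters. Only these exact letters were searched, so other forms, such as TATATAA in the Rps18 window above, were not counted. These are matches of letters and do not show binding or use, and a start that RefSeq places a few bases off hides the tract.

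Members fell into a bright and a dim group. For 34 of 42 genes the mean signal over the 8 arrays lay between 7111 and 25835, and the median member stood above 99.2% to 99.7% of the genes on every array. The brightest was Rpl38, a large-subunit protein known in the mouse for its part in translating Hox messengers. Rpl38 had signals of 33917 and 26743 on the Ethanol and FGF2 arrays and 24745 and 23194 on the Ethanol and TGF-beta1 arrays, against 17691 and 34408 on the FGF2 arrays and 18087 and 27893 on the TGF-beta1 arrays. The groups with and without ethanol overlapped, since the highest and the 2 lowest values were all without ethanol. Rpl19 and Rpl13a, also of the large subunit, followed with means of 25576 and 24398.

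The other 8 members had mean signals of 1211 or less. They were Rpl14, Rps25, Rps6, Rpl12, Rps27, Rpl39, Rpl37 and Rps16, each read from the only probe set with its symbol alone except Rps6, which had 2. The lowest, Rps16, a small-subunit protein, lay between 1.05 and 16.8 and was under the filter, so 41 members were tested. A probe set's brightness depends on its probes as well as on its transcript, so the order of signals among members is not an order of messenger levels.

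**Figure D1:**
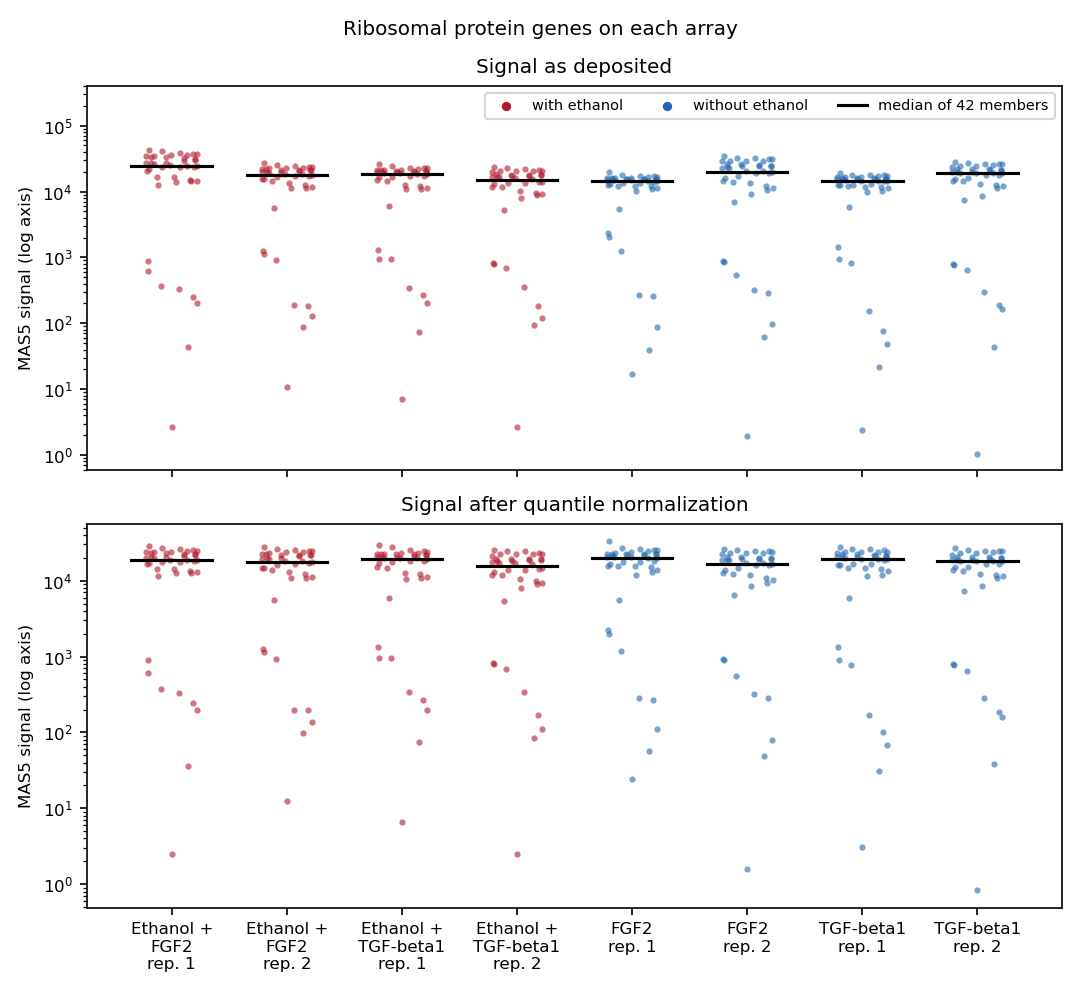
MAS5 signal (log axis) of the 42 ribosomal protein genes on each array, as deposited (top) and after quantile normalization (bottom), with ethanol in red and without in blue. Each point is 1 gene and the black bar is the median member, which as deposited is highest on the replicate 1 array labelled Ethanol and FGF2 (24527) and lowest on FGF2 replicate 1 (14476).

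Most bright members went up and down together from array to array, and replicates of a group differed as much as groups did. The median member signal was 24527 and 18065 on the Ethanol and FGF2 arrays and 18443 and 14927 on the Ethanol and TGF-beta1 arrays, against 14476 and 20076 on the FGF2 arrays and 14596 and 19018 on the TGF-beta1 arrays. It was highest on the replicate 1 array labelled Ethanol and FGF2, where 27 of 42 members had their highest value. It was lowest on both replicate 1 arrays without ethanol and on Ethanol and TGF-beta1 replicate 2, which held the lowest value of 14 (TGF-beta1), 12 (FGF2) and 11 members. As deposited, 34 of 42 members within FGF2 were higher on replicate 2 than on replicate 1, with a median log2 difference of 0.54. Within TGF-beta1, 35 members were higher on replicate 2 (median 0.39). Within both ethanol groups replicate 2 was the lower one, with median differences of −0.42 for FGF2 and −0.22 for TGF-beta1. After quantile normalization replicate 2 was the lower one in all 4 groups. The median differences were then −0.11 for Ethanol and FGF2, −0.20 for Ethanol and TGF-beta1, −0.23 for FGF2 and −0.11 for TGF-beta1. As deposited, a comparison of ethanol with no ethanol on single arrays therefore turned with the replicate chosen. The median log2 difference was 0.78 (36 of 42 members higher with ethanol) between the replicate 1 arrays with FGF2 and −0.22 (13 of 42) between the replicate 2 arrays. With TGF-beta1 the values were 0.34 (37 of 42) and −0.26 (7 of 42). After quantile normalization they were −0.10 and 0.07 with FGF2, and 0.04 and −0.08 with TGF-beta1.

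Relative to one another most bright members moved little. The SD of log2 signal over the 8 arrays had a median of 0.32 among the 34 bright members, and 0.15 once each was taken relative to their common median on the array. Their highest signal was between 1.39 and 2.98 times the lowest. The smallest SDs of log2 signal over the 8 arrays were those of Rps14, Rpl7 and Rpl8. Rps14, a small-subunit protein whose loss marks the human 5q deletion syndrome, had a range of 12761 to 17759. Rpl7 and Rpl8 of the large subunit had ranges of 11796 to 16806 and 8827 to 14487. Relative to the common median the SDs were 0.26 for Rps14, 0.18 for Rpl7 and 0.22 for Rpl8, each above the median of 0.15. The widest range among the bright members was that of Rpl27, a large-subunit protein. The Rpl27 signal was 40984 and 19072 on the Ethanol and FGF2 arrays and 17325 and 17089 on the Ethanol and TGF-beta1 arrays, against 13765 and 23238 on the FGF2 arrays and 14328 and 22130 on the TGF-beta1 arrays. Only the replicate 1 array labelled Ethanol and FGF2 stood above the arrays without ethanol, and the groups overlapped.

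**Figure D2:**
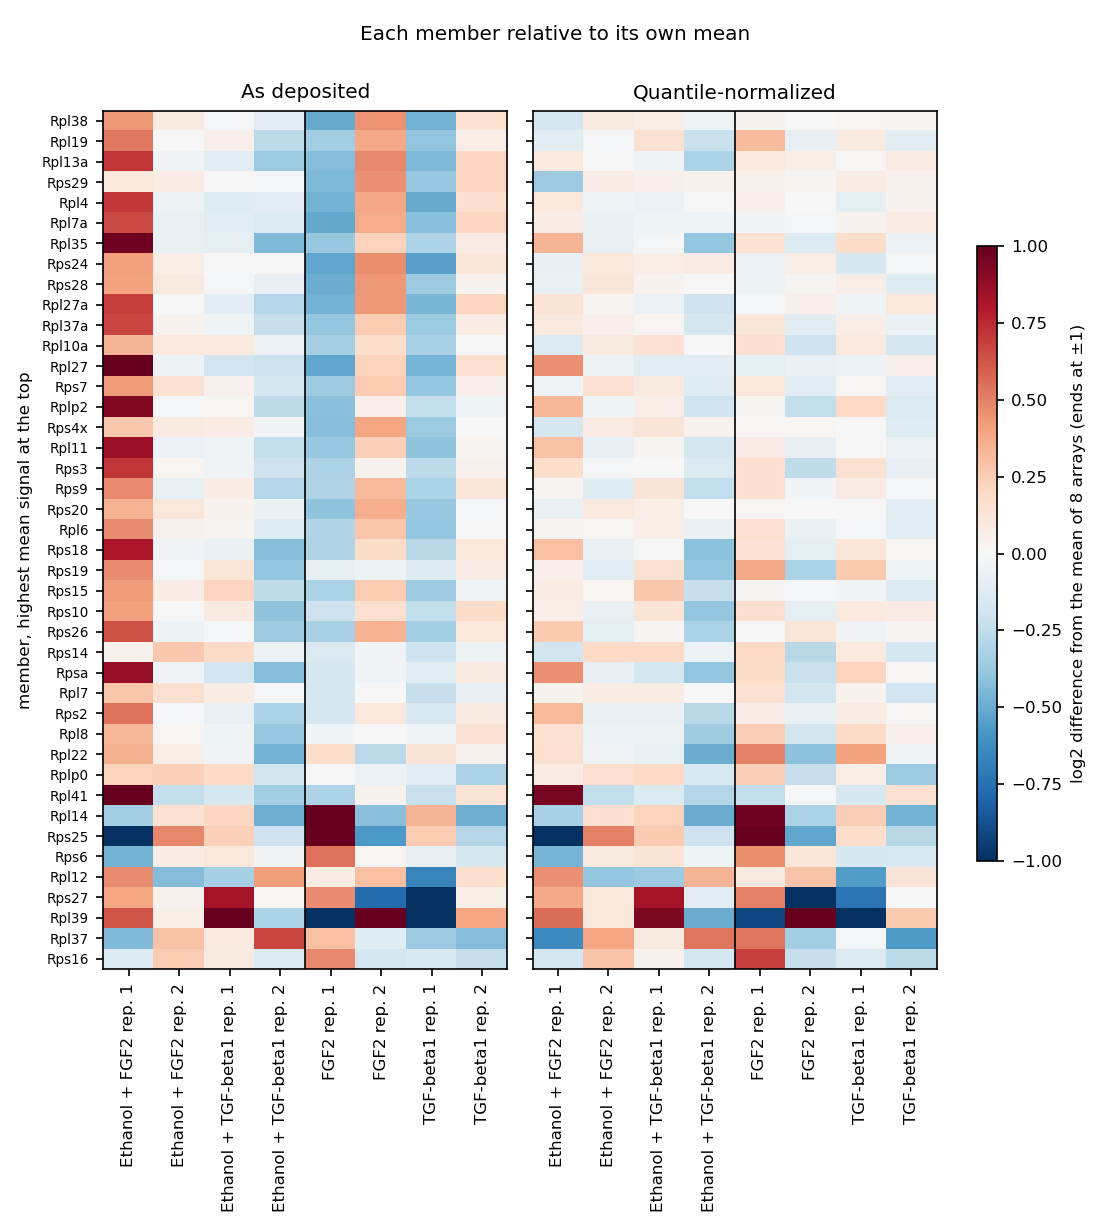
Each member's log2 signal on each array minus its own mean over the 8 arrays, as deposited (left) and after quantile normalization (right), with the 4 ethanol arrays left of the line and members ordered from highest to lowest mean signal. As deposited, columns of 1 colour run through the bright members, while Rpl14, Rps25 and Rps6 further down go the other way, and after quantile normalization most of the columns fade.

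The same arrays differed in the upper end of their whole signal distribution. The signal exceeded by 0.1% of probe sets was 36684 and 23415 on the Ethanol and FGF2 arrays and 22864 and 22596 on the Ethanol and TGF-beta1 arrays, against 16678 and 31625 on the FGF2 arrays and 17380 and 26194 on the TGF-beta1 arrays. It was highest where the bright members were highest and lowest on the replicate 1 arrays without ethanol. Ribosomal protein probe sets are themselves part of this upper end: of the 46 probe sets above that signal on an array, 12 to 24 were among the 204 probe sets that list a member symbol or one of the same form. With those 204 left out, the signal exceeded by 0.1% of the rest was 28224 and 21627 on the Ethanol and FGF2 arrays and 20532 and 21185 on the Ethanol and TGF-beta1 arrays, against 15385 and 28847 on the FGF2 arrays and 16035 and 24223 on the TGF-beta1 arrays. The replicate 1 arrays without ethanol were then still lowest, and FGF2 replicate 2 was highest. The trimmed mean to which the arrays were scaled does not equalize this upper end. The members' share of the summed signal of all genes was 4.27% and 3.09% on the Ethanol and FGF2 arrays and 3.12% and 2.71% on the Ethanol and TGF-beta1 arrays, against 2.61% and 3.50% on the FGF2 arrays and 2.59% and 3.18% on the TGF-beta1 arrays. Quantile normalization, which gives every array the same distribution, brought the median member to 18660 and 17872 on the Ethanol and FGF2 arrays and 19398 and 15681 on the Ethanol and TGF-beta1 arrays, against 19958 and 16812 on the FGF2 arrays and 19389 and 18089 on the TGF-beta1 arrays. It lowered the SD of 29 of the 34 bright members, and their median SD fell to 0.15. The other 5 were Rps19, Rps14, Rpl8, Rpl22 and Rplp0. Since the members are part of the upper end that quantile normalization makes equal, a change that they share would be lowered as well. The values before and after it therefore cannot tell such a change from a difference between arrays. The median SD between replicates became 0.17 among bright members, where it was 0.36 as deposited, while over all tested genes it was 0.30 after and 0.31 before. Other features of the arrays were not equal either. The probe set for the middle of 18S ribosomal RNA read 9922 on the replicate 1 array labelled Ethanol and FGF2, between 5147 and 5691 on 5 arrays, and 2344 and 2374 on the replicate 2 arrays without ethanol. The ratio of 3′ to 5′ Gapdh signal, which tracks how intact the RNA is, read 3.33 and 3.48 on the Ethanol and FGF2 arrays and between 1.64 and 2.20 on the other 6 arrays. The same ratio for Actb was 3.57 and 4.20 on the Ethanol and FGF2 arrays and 2.78 and 3.07 on the Ethanol and TGF-beta1 arrays, against 2.35 and 3.61 on the FGF2 arrays and 2.36 and 3.03 on the TGF-beta1 arrays, so that FGF2 replicate 2 stood with Ethanol and FGF2. The part of these features in the members' levels was not tested.

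**Figure D3:**
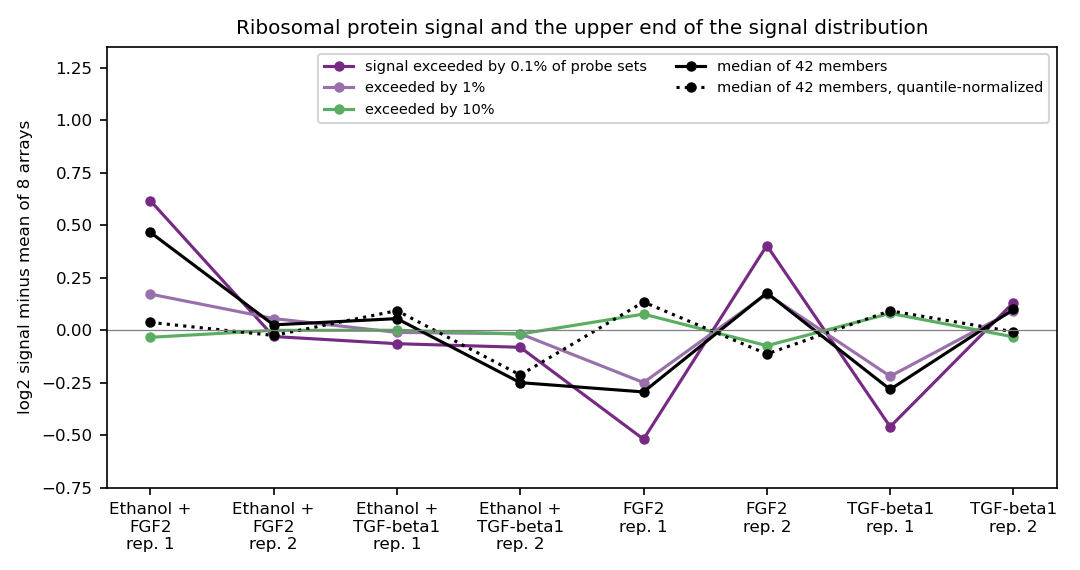
Log2 of the median member signal (black, solid as deposited and dotted after quantile normalization) and of the signals exceeded by 10%, 1% and 0.1% of all probe sets (those of ribosomal proteins included) on each array, each minus its mean over the 8 arrays. The median member as deposited and the signal exceeded by 0.1% of probe sets are both highest on the replicate 1 array labelled Ethanol and FGF2 and low on the replicate 1 arrays without ethanol.

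The first comparison asked how ethanol altered messenger levels, averaged over both growth factors, with 4 arrays with and 4 without ethanol. Ribosomal protein genes as deposited lay slightly above 0, and none passed the test. Of 41 members tested by limma, 0 passed an adjusted p of 0.05, where 1.99% of the 10916 genes tested did, and 0 members had an unadjusted p under 0.05, where 10.8% of genes did. The median log2 fold change was 0.19, against 0.03 over all genes, and 36 of 41 members lay above 0, against 54% of all genes. Quantile normalization would also lower a change that the members share. After it the median was 0.00 and 21 of 41 members lay above 0 (52.1% of genes). By limma on those values 0 members passed (2.17% of genes) and 0 had an unadjusted p under 0.05 (11.2%). Arrays with and without ethanol overlapped for all 41 members, while 2.98% of genes were higher and 4.45% lower without overlap. The overlap remained for all 41 after quantile normalization, where the shares of genes were 2.88% and 4.53%. The median as deposited was 0.03 without the replicate 1 array labelled Ethanol and FGF2, 0.05 without FGF2 replicate 1, 0.07 without TGF-beta1 replicate 1, 0.29 without Ethanol and FGF2 replicate 2, 0.33 without FGF2 replicate 2 and 0.29 without TGF-beta1 replicate 2. It was 0.02 without both doubted arrays, and −0.06, with 14 of 41 members above 0, when those arrays were left out after quantile normalization. The median SE of a member was 0.23 as deposited and 0.13 after quantile normalization. The 95% interval for Rpl38, the member at the median, ran between −0.38 and 0.76. Both subunits gave like values, with medians of 0.20 for 22 large-subunit and 0.14 for 19 small-subunit members as deposited, and 0.01 and −0.05 after quantile normalization.

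**Figure D4:**
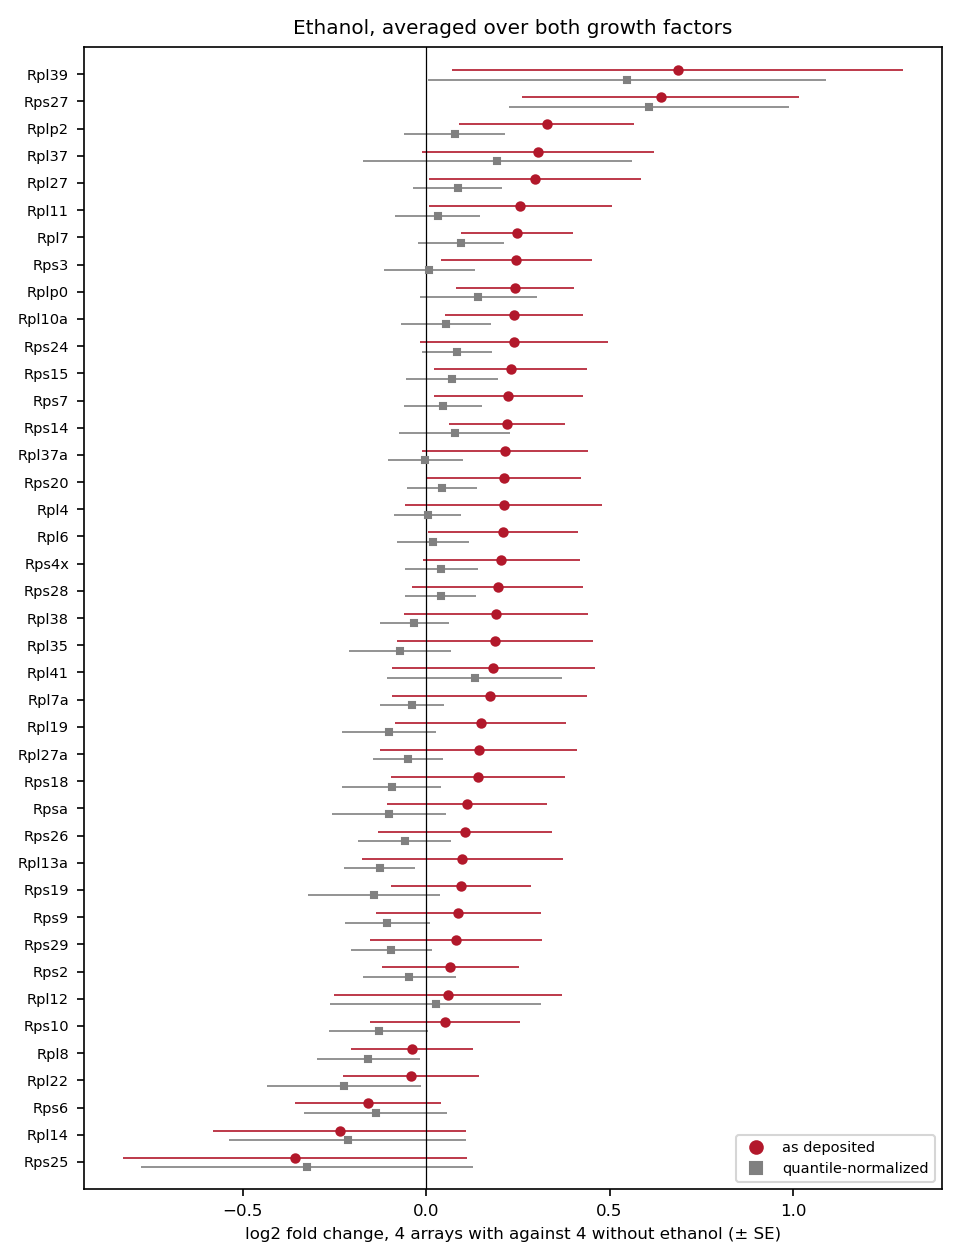
Log2 fold change of each of the 41 tested members in the average over both growth factors (4 arrays with against 4 without ethanol), with its SE as a bar, as deposited (red circles) and after quantile normalization (grey squares). Most red circles lie right of 0 while the grey squares lie on both sides of it, and 0 members passed the test under either scaling.

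None of the 5 members named for their role passed the test. Rplp0 and Rplp2 form the stalk of the large subunit, to which elongation factors bind. The Rplp0 signal was 12634 and 12708 on the Ethanol and FGF2 arrays and 12418 and 9507 on the Ethanol and TGF-beta1 arrays, against 10790 and 10375 on the FGF2 arrays and 9973 and 8660 on the TGF-beta1 arrays. Of the ethanol arrays, 3 lay above all 4 arrays without ethanol, and Ethanol and TGF-beta1 replicate 2 lay among them. The fold change on the log2 scale was 0.24 ± 0.16 (SE, adjusted p = 0.664 by limma). The Rplp2 signal was 37568 and 19470 on the Ethanol and FGF2 arrays and 20014 and 16457 on the Ethanol and TGF-beta1 arrays, against 14785 and 20500 on the FGF2 arrays and 16660 and 19171 on the TGF-beta1 arrays. Only its first value stood apart, and the log2 fold change of 0.33 ± 0.24 (adjusted p = 0.703 by limma) became 0.08 after quantile normalization. Rpl11, which with the 5S particle binds Mdm2 when ribosome assembly fails, had 34912 and 18532 on the Ethanol and FGF2 arrays and 18877 and 16341 on the Ethanol and TGF-beta1 arrays, against 14881 and 22816 on the FGF2 arrays and 14616 and 19692 on the TGF-beta1 arrays. Here too 1 ethanol array lay above all others, and the log2 fold change was 0.26 ± 0.25 (adjusted p = 0.800 by limma) as deposited and 0.03 after quantile normalization.

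Rpsa, a small-subunit protein also known as the laminin receptor, had the lowest p of the members for the difference between the 2 ethanol effects. Its signal was 25234 and 13423 on the Ethanol and FGF2 arrays and 12066 and 10208 on the Ethanol and TGF-beta1 arrays, against 12292 and 13382 on the FGF2 arrays and 12685 and 14664 on the TGF-beta1 arrays. Both Ethanol and FGF2 values lay above both FGF2 values, the second narrowly, and both Ethanol and TGF-beta1 values lay below both TGF-beta1 values. Rpl8 was the only other tested member with this pattern, which 3.61% of all genes showed as deposited. After quantile normalization the FGF2 arrays with and without ethanol overlapped for both genes. The Rpsa interaction of −0.82 ± 0.44 as deposited had an adjusted p of 0.831 by limma.

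Rps6, a small-subunit protein that the S6 kinases phosphorylate, belonged to the dim members with another course. The Rps6 signal was 612 and 906 on the Ethanol and FGF2 arrays and 931 and 837 on the Ethanol and TGF-beta1 arrays, against 1259 and 872 on the FGF2 arrays and 810 and 765 on the TGF-beta1 arrays. The replicate 1 array labelled Ethanol and FGF2, highest for most bright members, was lowest here, and FGF2 replicate 1 was highest. Rps25, a small-subunit protein needed for translation from some internal ribosome entry sites, had 330 and 1126 on the Ethanol and FGF2 arrays and 950 and 692 on the Ethanol and TGF-beta1 arrays, against 2058 and 532 on the FGF2 arrays and 961 and 650 on the TGF-beta1 arrays. Its lowest and highest values stood on the same arrays as those of Rps6. Rpl14, of the large subunit, was likewise highest on FGF2 replicate 1, at 2345, and lay between 801 and 1437 on the other arrays. Dimmer probe sets of bright members could show the course of Rps6 too. A dimmer Rpl22 probe set was lowest on the replicate 1 array labelled Ethanol and FGF2 (2058) and highest on FGF2 replicate 1 (7280). For a dimmer Rps3 probe set these were 2421 and 5747. Another dimmer Rpl22 probe set read 2151 and 1820 there, neither lowest nor highest. Whether the course belongs to the genes or to their probe sets was not tested. The log2 fold changes of Rps25, Rpl14 and Rps6 in the average were −0.36 ± 0.47, −0.24 ± 0.35 and −0.16 ± 0.20, the 3 lowest of the members, with −0.04 for Rpl8 and Rpl22. Without FGF2 replicate 1 those of Rps25 and Rpl14 were 0.12 and 0.13, and without the replicate 1 array labelled Ethanol and FGF2 that of Rps25 was 0.07.

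The 2 highest log2 fold changes also came from dim members. The Rpl39 signal (a protein that lines the exit tunnel of the large subunit) was 201 and 127 on the Ethanol and FGF2 arrays and 266 and 93.2 on the Ethanol and TGF-beta1 arrays, against 39.6 and 287 on the FGF2 arrays and 22.0 and 167 on the TGF-beta1 arrays. Both replicate 1 arrays without ethanol were lowest and the replicate 2 arrays lay among the ethanol values or above them, so the groups overlapped and the log2 fold change of 0.69 had an SE of 0.61. The Rps27 signal (a zinc finger protein of the small subunit) was 247 and 188 on the Ethanol and FGF2 arrays and 342 and 184 on the Ethanol and TGF-beta1 arrays, against 262 and 96.9 on the FGF2 arrays and 76.6 and 191 on the TGF-beta1 arrays. With 0.64 ± 0.38 and an adjusted p of 0.608 by limma it came nearest to the threshold, and quantile normalization left it at 0.61. These 2 and Rps25 had the largest SD of log2 signal among the members, 1.00 for Rpl39, 0.76 for Rps25 and 0.63 for Rps27.

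Within FGF2, with 2 ethanol arrays (1 of them doubted) against 2, all 34 bright members had a log2 fold change above 0 as deposited, and 0 of 41 members passed the test. By limma 0% of the 10916 genes were called in this comparison, 8.3% had an unadjusted p under 0.05 and 0 members did. With single arrays left out up to 9 members did, 9 without Ethanol and FGF2 replicate 2 and 4 without FGF2 replicate 2. The member median was 0.29, against 0.05 over all genes, and 36 of 41 members lay above 0, against 55.5% of genes. After quantile normalization it was 0.02, with 25 of 41 above 0 (54.6% of genes), and 0 members passed by limma (0.266% of genes) or had an unadjusted p under 0.05 (8.56%). Both ethanol arrays lay above both arrays without ethanol for 6 members (19.3% of all genes), which were Rpl7, Rpl8, Rplp0, Rps14, Rps19 and Rpsa, and below them for 0 (12.8% of genes). After quantile normalization only Rpl27 was higher without overlap (19.5% of genes) and only Rps6 lower (13.4%). The highest values were those of Rpl27 (0.64 ± 0.41), Rplp2 (0.63 ± 0.34), Rpl41 (0.57 ± 0.39), whose protein is a very short peptide, and Rpl35 (0.52 ± 0.38), near the exit of the large subunit's tunnel. Without the doubted array these 4 had 0.09 (Rpl27), 0.16 (Rplp2), −0.10 (Rpl41) and 0.00 (Rpl35). The lowest were those of Rps25 (−0.75 ± 0.66), Rps6 (−0.48 ± 0.28), Rpl14 (−0.40 ± 0.49) and Rpl12 (−0.17 ± 0.44), a protein at the base of the stalk. Without the doubted array they had 0.10 (Rps25), −0.20 (Rps6), −0.16 (Rpl14) and −0.63 (Rpl12). Without the doubted array the member median was 0.07, without FGF2 replicate 1 it was 0.04, without Ethanol and FGF2 replicate 2 it was 0.48 and without FGF2 replicate 2 it was 0.61.

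Within TGF-beta1, again with 1 doubted array, members lay on both sides of 0. Of 41 members 0 passed the test by limma where 1.19% of genes did, and 0 had an unadjusted p under 0.05, where 9.48% did. The member median was 0.05, against −0.01 over all genes, with 24 of 41 above 0 (49.2% of genes). After quantile normalization it was −0.02, with 17 above 0 (48.1%), and 0 members passed by limma (1.28% of genes) or had an unadjusted p under 0.05 (10.3%). Without overlap, 3 members were higher with ethanol (Rpl37, Rpl7 and Rps6, 22.2% of all genes) and 3 lower (Rpl22, Rpl8 and Rpsa, 25.7%). After quantile normalization 4 were higher (Rpl37, Rps24, Rps4x and Rps6, 21.9% of genes) and 9 lower (27.5%), Rpl22, Rpl8 and Rpsa among them. The highest values belonged to the dim members Rpl39 (0.98 ± 0.87), Rps27 (0.91 ± 0.53), Rpl37 (0.78 ± 0.45) and Rpl12 (0.29 ± 0.44). The lowest were those of Rpl22 (−0.34 ± 0.26), an RNA-binding protein of the large subunit, Rpsa (−0.30 ± 0.31), Rpl8 (−0.26 ± 0.23), which lies near the peptidyl transferase centre, and Rpl41 (−0.20 ± 0.39). By its only probe set not marked for probes shared with other transcripts, Rpl41 had the opposite sign. That value was 1.22 ± 0.30 (adjusted p = 0.133 by limma). The Rpl37 signal was 74.7 and 122 on the Ethanol and TGF-beta1 arrays, against 47.8 and 44.4 on the TGF-beta1 arrays, near the constant of 23.7 added before the log was taken. Without the doubted array the member median was −0.06, and it was −0.16 without TGF-beta1 replicate 1, 0.14 without Ethanol and TGF-beta1 replicate 2 and 0.26 without TGF-beta1 replicate 2.

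The difference between the 2 ethanol effects, which uses the same arrays, did not pass for any member. By limma 0 of 41 members and 0% of genes were called in this interaction, and 0 members had an unadjusted p under 0.05 (4.43% of genes), or 7 without Ethanol and FGF2 replicate 2. The member median was −0.21 (ethanol effect in TGF-beta1 minus that in FGF2), against −0.07 over all genes, with 8 of 41 above 0 (44.9% of genes). After quantile normalization it was 0.01, with 21 of 41 above 0 (44.2%), and 0 members passed by limma or had an unadjusted p under 0.05 (5.11% of genes). It was −0.02 without the replicate 1 array labelled Ethanol and FGF2, 0.00 without FGF2 replicate 1 and −0.55 without FGF2 replicate 2.

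TGF-beta1 against FGF2 asked how the 2 growth factors differed. Without ethanol, 0 of 41 members and 0% of genes were called by limma, and 0 members had an unadjusted p under 0.05 (4.97% of genes). The member median was −0.11, with 7 of 41 above 0 (52.5% of genes). After quantile normalization it was −0.03, with 17 above 0 (52.8%), and 0 members passed by limma or had an unadjusted p under 0.05 (5.19% of genes). The highest values were those of Rpl22 (0.14 ± 0.26), Rpl41 (0.09 ± 0.39), Rpsa (0.09 ± 0.31) and Rpl8 (0.07 ± 0.23). The lowest were those of Rpl39 (−0.59 ± 0.87), Rpl37 (−0.49 ± 0.45), Rpl12 (−0.44 ± 0.44) and Rps6 (−0.40 ± 0.28). By its only probe set not marked for probes shared with other transcripts, Rpl41 had the opposite sign to its 0.09. That value was −0.84 ± 0.30 (adjusted p = 0.962 by limma). Both TGF-beta1 arrays lay below both FGF2 arrays for Rpl37, Rplp0 and Rps6 (15.8% of genes) and above them for 0 members (20.4%). After quantile normalization 4 members were lower (Rps15, Rps20, Rps4x and Rps6, 17.1% of genes) and 2 higher (Rpl27 and Rpl7a, 20.8%). As deposited, replicate 2 was higher than replicate 1 in both groups. Leaving out FGF2 replicate 2 thus gave a median of 0.20, and leaving out TGF-beta1 replicate 1 gave 0.12. Leaving out FGF2 replicate 1 gave −0.38, and leaving out TGF-beta1 replicate 2 gave −0.33. Between arrays of the same number the median log2 difference was −0.02 for replicate 1, with 17 of 42 members higher with TGF-beta1. For replicate 2 it was −0.18 (9 of 42). After quantile normalization these were −0.08 (8 of 42) and 0.03 (26 of 42).

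With ethanol, the groups as labelled held both doubted arrays. All 34 bright members lay below 0, 5 of 41 members lay above it (45.6% of genes), and 0 of 41 members were called by limma, as were 0% of genes. Of the members, 1 had an unadjusted p under 0.05 (2.64% of genes), Rpsa (−0.73 ± 0.31, adjusted p = 0.983 by limma). Without the doubted Ethanol and FGF2 array Rpsa had −0.27 ± 0.25 and 0 members had an unadjusted p under 0.05, and without Ethanol and FGF2 replicate 2 there were 9. After quantile normalization 0 members had one (3.18% of genes) and 0 passed by limma. The median was −0.35 as deposited, −0.13 without the replicate 1 array labelled Ethanol and FGF2, −0.54 without Ethanol and FGF2 replicate 2, −0.24 without Ethanol and TGF-beta1 replicate 2 and −0.24 without both doubted arrays, which left 1 array a group. After quantile normalization it was −0.06, with 12 of 41 above 0 (44.6% of genes). For 23 members both arrays labelled Ethanol and TGF-beta1 lay below both labelled Ethanol and FGF2, against 19.3% of genes, and 0 lay above (12.4%). Quantile normalization left 7 members lower without overlap (20.5% of genes) and 0 higher (12.1%). The 7 were Rpl13a, Rpl22, Rpl27, Rpl27a, Rpl37a, Rps2 and Rpsa. The direction rests on the labels of arrays whose Fn1 signal went against them.

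For 22 members the array had more than 1 probe set with that symbol alone, and these did not always give the same course. Of 19 members with more than 1 probe set above the filter, 8 had log2 differences of both signs between ethanol and none. Rpl13a showed this most plainly by level. Its brightest probe set read 38423 and 22858 on the Ethanol and FGF2 arrays and 21656 and 18125 on the Ethanol and TGF-beta1 arrays, against 17327 and 32659 on the FGF2 arrays and 17168 and 26965 on the TGF-beta1 arrays. Its dimmest read 3298 and 4169 on the Ethanol and FGF2 arrays and 3998 and 2342 on the Ethanol and TGF-beta1 arrays, against 7408 and 3535 on the FGF2 arrays and 5929 and 3956 on the TGF-beta1 arrays. The replicate 1 arrays without ethanol were thus low by the brightest probe set and high by the dimmest, and the log2 differences were 0.10 and −0.56. The gap between the probe sets of a gene was largest for Rpl41, with log2 differences between 0.18 and 1.02. One Rpl41 probe set read 56256 on the replicate 1 array labelled Ethanol and FGF2 and between 2030 and 3691 on the other 7. The single Rpl41 probe set whose probes are not marked as shared with other transcripts read 1150 and 1126 on the Ethanol and FGF2 arrays and 666 and 1217 on the Ethanol and TGF-beta1 arrays, against 701 and 681 on the FGF2 arrays and 412 and 341 on the TGF-beta1 arrays. By this probe set 3 ethanol arrays lay above all arrays without ethanol, and the log2 fold change was 0.96, with an adjusted p of 0.0675 by limma. Of the other members with both signs, Rps9 had log2 differences between −0.17 and 0.54, Rps20 between −0.47 and 0.21, Rpl22 between −0.16 and 0.45, Rps24 between −0.24 and 0.25, and Rps10 between −0.28 and 0.14.

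Ribosomal protein genes have many near-identical processed copies in the mouse genome, and 14 of the 42 probe sets used carry the array's mark for probes shared with other transcripts. Without such probe sets 36 members were tested, with a median of 0.16 in the ethanol average and 0 called by limma. The 110 probe sets that list a ribosomal protein symbol among several genes had a median signal of 24063 and 17170 on the Ethanol and FGF2 arrays and 16226 and 13946 on the Ethanol and TGF-beta1 arrays, against 13569 and 19161 on the FGF2 arrays and 13257 and 16792 on the TGF-beta1 arrays. They followed the members' order of arrays in that the same array was highest and the replicate 1 arrays without ethanol were lowest. Their median log2 difference in the ethanol average was 0.14 as deposited, with 92 of 110 above 0, and −0.04 after quantile normalization, with 44 above 0.

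Gene lists of the same pathway, chosen with earlier results of these data known, did not share one course. Mitochondrial ribosomal proteins, which translate the messengers of the mitochondrial genome, lay mostly below 0 in the ethanol average. Of 76 genes, 0 passed the test by limma, 66 lay below 0 and 10 above it, against 54% of all genes above 0, and the median was −0.18, against 0.03 over all genes. The median was −0.15 after quantile normalization, with 65 below 0, and −0.24 without both doubted arrays, with 66 below 0. Within TGF-beta1 69 of 76 lay below 0 with a median of −0.36, within FGF2 39 of 76 with −0.01, and the median of TGF-beta1 against FGF2 without ethanol was 0.19. By array their median log2 level relative to the mean of 8 arrays was 0.13 and −0.11 on the Ethanol and FGF2 arrays and −0.14 and −0.23 on the Ethanol and TGF-beta1 arrays, against 0.13 and −0.14 on the FGF2 arrays and 0.27 and 0.05 on the TGF-beta1 arrays. The replicate 1 array labelled Ethanol and FGF2 was high and FGF2 replicate 2 low, so the groups overlapped. Without FGF2 replicate 1 the median was −0.06, and without TGF-beta1 replicate 1 it was −0.11. The 3 largest differences were those of Mrps28 (−0.53 ± 0.18), Mrpl19 (−0.52 ± 0.33) and Mrpl50 (−0.51 ± 0.20).

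Of 51 genes of RNA polymerase I and ribosome assembly, 1 fell with ethanol in the average and 0 rose, a share near the 1.99% of all genes called. The median was −0.08 and 12 of 51 lay above 0, against 54% of all genes. It was Dkc1, dyskerin, the enzyme that turns uridines of ribosomal RNA into pseudouridines. The Dkc1 signal was 1070 and 1420 on the Ethanol and FGF2 arrays and 1317 and 1470 on the Ethanol and TGF-beta1 arrays, against 2399 and 2688 on the FGF2 arrays and 2354 and 2495 on the TGF-beta1 arrays. All ethanol arrays lay below all others, with a log2 fold change of −0.91 ± 0.16 (adjusted p = 0.0208 by limma) and −0.88 ± 0.17 after quantile normalization (adjusted p = 0.0299 by limma). It was −0.77 without both doubted arrays, where no gene passed the threshold (adjusted p = 0.165 by limma), and the median of its probe sets gave −0.25 (adjusted p = 0.846). Leaving out any 1 of the 6 arrays other than those labelled Ethanol and FGF2 also ended the call, with adjusted p between 0.061 and 0.12 by limma, at log2 fold changes between −0.95 and −0.87. The Dkc1 probe set used carries the array's mark for probes shared with other transcripts. By its brightest probe set without that mark the log2 fold change was −0.25 ± 0.31 (adjusted p = 0.853 by limma). Next in the list came Lyar (−0.68 ± 0.25) and Nolc1 (−0.58 ± 0.28), both nucleolar proteins of ribosome assembly, which did not pass. With single arrays left out the list's median ran between −0.24, without FGF2 replicate 1, and 0.01, without Ethanol and FGF2 replicate 2 or without FGF2 replicate 2.

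The remaining lists held no called gene in the ethanol average by limma. Initiation factors and poly(A)-binding proteins (30 genes) had a median of 0.09, with 20 above 0, with Eif4e, which binds the cap, at −0.51 ± 0.21, Eif3f, a subunit of the scaffold factor eIF3, at 0.37 ± 0.17 and Eif4ebp1, which holds Eif4e back, at 0.32 ± 0.26. Elongation and termination factors (9 genes) had 0.14 as deposited and 0.01 after quantile normalization, with Eef2k, the kinase that inhibits elongation factor 2, at 0.26 ± 0.16, Eef2 at 0.24 ± 0.16 and Etf1, the release factor, at −0.18 ± 0.18. Regulators of the Myc and mTOR pathways (22 genes) had 0.01, with Mycn at −0.72 ± 0.33, Mxd3 at −0.67 ± 0.21 and Mxd1 at −0.49 ± 0.19. Of genes with related symbols of another form, 7 were tested. The 2 that encode ribosomal proteins of every cell, Rps3a1 (0.22 ± 0.25) and Fau (0.21 ± 0.18), lay near the member median. The other 5, which are relatives of ribosomal proteins (Rpl22l1, Rps27l), assembly factors (Rsl24d1, Rpl7l1) and a binding protein (Rps19bp1), lay below 0, between −0.35 ± 0.19 for Rps27l and −0.04 ± 0.16 for Rpl7l1. In the same arrays and test, 18 of 19 genes of G2 phase and mitosis fell, with a median of −3.29. Without both doubted arrays the median was −2.95 and 0 passed by limma. By array their median log2 level was between 6.75 and 7.56 with ethanol, against 8.86 on FGF2 replicate 2 and between 10.27 and 10.67 on the other arrays without ethanol. As deposited, the order of arrays in that list was not that of the ribosomal protein genes. FGF2 replicate 1 and TGF-beta1 replicate 1 were high in that list and low among the members. After quantile normalization the median member was highest on FGF2 replicate 1 (19958), with 19389 on TGF-beta1 replicate 1. Ethanol and TGF-beta1 replicate 1, low in the list, then had 19398.

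**Figure D5:**
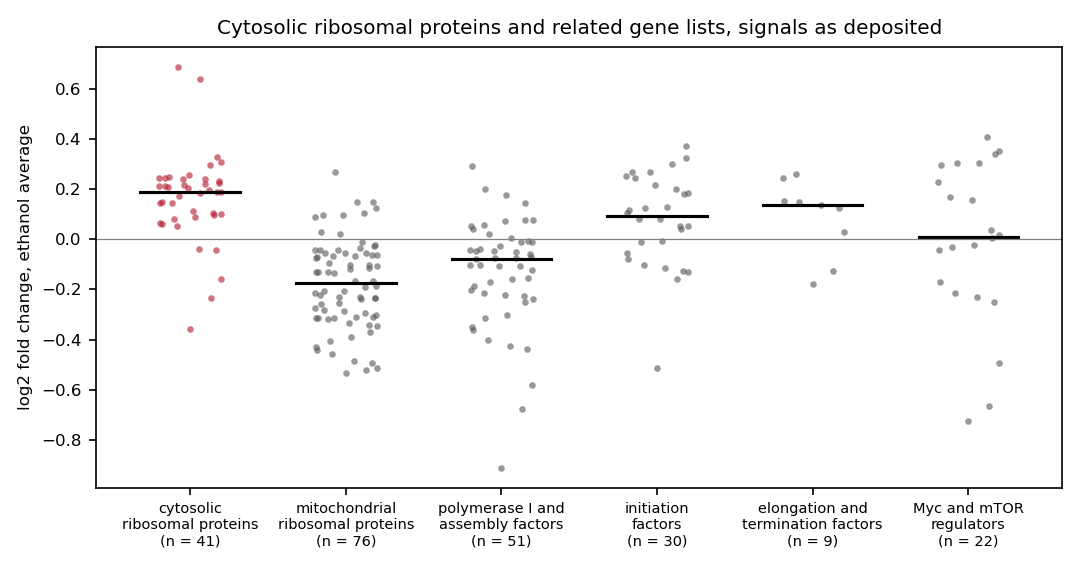
Log2 fold change in the ethanol average (4 arrays with against 4 without ethanol), as deposited, for the 41 cytosolic ribosomal protein genes (red) and for the lists of related genes (grey). Each point is 1 gene and the bar is the list median, which is 0.19 for cytosolic and −0.18 for mitochondrial ribosomal proteins.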

How the data were processed

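RNA of 8 samples, 2 in each of 4 groups, was measured on Affymetrix mouse arrays. The deposited table holds 1 signal intensity for each of 45101 probe sets, made with MAS5 and GCOS per the submitters' processing notes; versions are not given in the sources used here. Probe sets were named from the platform annotation: 34945 had 1 symbol, 932 several. A constant of 23.7, the 25th percentile over all arrays, was added to each signal before log2 was taken. Genes whose mean log2 reached 6.40, their 40th percentile, were tested.

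Groups were compared with limma 3.58.1 in R 4.3.3: 4 group means, 4 residual degrees of freedom, empirical Bayes with a trend, two-sided tests, Benjamini-Hochberg adjustment over 10916 genes in each of 6 comparisons. ± is the moderated SE. The script was tested on simulated data. Quantile normalization used all probe sets. Other alternatives changed the constant, filter, probe sets, prior, centring, replicate block and arrays left out. Members with a mean signal over 2000, called bright, taken alone, and quantile normalization without the doubted arrays were chosen after seeing the data. Comparisons share arrays.

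Members and lists were chosen with earlier results of these data known. Members named were the 4 highest and 4 lowest fold changes in 4 comparisons, the 3 brightest and dimmest, the 3 with largest and smallest SD, those with a set role and 6 whose probe sets differ in sign. Of each list of translation genes the 3 largest changes were named, and other lists are given as counts with genes singled out after their values were seen. Rps19, Rps18 and members in lists of non-overlap were named after their values were seen.

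Replicate numbers are not stated to mark shared cultures. Deviations of same-numbered arrays correlated between −0.438 and 0.466 over 10916 genes, so the numbers were not taken to pair samples. Over the 41 members tested the correlations ran between −0.614 and 0.721. The highest value, over all genes and over members, was that of FGF2 with TGF-beta1. Whether the same-numbered arrays without ethanol shared a batch was not tested. The number of arrays limits the precision.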

Additional observations from a re-analysis of the deposited data

Results flagged for a closer look

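In 2 members, as deposited, every ethanol array with FGF2 lay above both FGF2 arrays while every ethanol array with TGF-beta1 lay below both TGF-beta1 arrays. For Rpl8 the log2 difference between ethanol and none was 0.188 within FGF2 and −0.265 within TGF-beta1. For Rpsa it was 0.520 within FGF2 and −0.297 within TGF-beta1. Of all genes tested 3.61% showed the same pattern, so 2 of 41 members is near that share. After quantile normalization neither Rpl8 nor Rpsa was higher without overlap within FGF2, while both were still lower within TGF-beta1. That the arrays lie on opposite sides is itself not tested. The interaction in limma did not pass for Rpsa (−0.82 ± 0.44, adjusted p = 0.831) or for Rpl8 (−0.45 ± 0.33, adjusted p = 0.833), and both contrasts hold 1 doubted array.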

How the results depend on the processing

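No member passed the threshold by limma in any of the 6 comparisons under any alternative run. The member median was set against the SD between replicates of the median member level, 0.29 on the log2 scale. That yardstick is wide: quantile normalization moved the median for the ethanol average by less than it, though to 0.00, against 0.19 as deposited, and that within FGF2 to 0.02, against 0.29. Moves beyond it were the following. After quantile normalization the median of TGF-beta1 against FGF2 with ethanol was −0.0636. With single arrays left out, the median ran between 0.0428 and 0.61 for ethanol within FGF2, between −0.55 and −7.93e-05 for the interaction, and between −0.38 and 0.20 for TGF-beta1 against FGF2 without ethanol, with the outer values of 0.61, −0.55 and 0.20 reached without FGF2 replicate 2. For the ethanol average it ran between 0.03 and 0.33.

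The fit with the replicate number as a block left that median at 0.19 and called 0 members. Over all genes it called 179 in the ethanol average (217 without the block) and 0 within TGF-beta1 (130). Other counts over all genes that moved by over 1.5 times in the ethanol average were 119 under the stricter filter, 129 without Ethanol and TGF-beta1 replicate 1, 92 without TGF-beta1 replicate 1, and, with both doubted arrays left out, 0 by limma (1141 had an unadjusted p under 0.05). Leaving out the doubted arrays after quantile normalization called 105. Within FGF2, where 0 genes were called, the count was 29 after quantile normalization, 56 after centring each array on its median, 29 without a filter, 76 without FGF2 replicate 2, 15 without either Ethanol and TGF-beta1 array, 3 under the stricter filter, and 1 by the median over probe sets, without shared probe sets or without FGF2 replicate 1. Within TGF-beta1 the 130 became 75 under the stricter filter, 73 by the median over probe sets, 78 without a trend in the prior, 66 without Ethanol and TGF-beta1 replicate 2, and 0 without any other array of that comparison or without the doubted arrays (523 to 935 at an unadjusted p under 0.05 by limma, 1130 after quantile normalization). Without the doubted arrays, TGF-beta1 against FGF2 gave 5 genes without ethanol and 2 with it, against 0 each. The causes were not tested. Alternatives were followed for 32 results of single members and gave 594 values. Of these, 545 moved by less than the SE, 31 changed sign and 0 passed the threshold. Under quantile normalization 0 of the 32 results changed sign. Over all 41 members tested, however, it took the number above 0 in the ethanol average from 36 to 21. Precision is limited by 2 arrays a group and, for dim members, by signals near the added constant.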

Other observations

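Rpl37 had the highest log2 interaction of the members, 0.95 ± 0.63 (ethanol effect in TGF-beta1 minus that in FGF2), and Rpsa the lowest, −0.82 ± 0.44, each with an adjusted p of 0.831 by limma.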
